A study of Homo sapiens with 4 samples.

Results

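The genes described here encode 6 subunits of respiratory complex III: UQCRH, UQCRQ, UQCR10, UQCR11, UQCRC1 and CYC1. LARP4 binding to their RNA was read from 3 lists of intervals. The members were the intervals that overlapped a fixed hg19 window for each gene on the gene's own strand. This gave 56 of 171755 clusters in replicate 1, 60 of 191899 in replicate 2 and 41 of 7153 regions in the authors' series-wide list. Every one of the 6 genes had intervals in all 3 lists, and none of the windows held a cluster on the opposite strand. Widening the windows by 1 kb on each side added no cluster.

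The study used enhanced crosslinking and immunoprecipitation (eCLIP) in HEK293, an established human embryonic kidney cell line, grown without any further treatment named in the labels. In this assay ultraviolet light joins proteins to bound RNA, the protein is pulled down with an antibody, and the attached RNA fragments are sequenced. There were 2 eCLIP samples with an antibody to LARP4 and 2 size-matched inputs, which pass through the same gel step with no antibody. The labels call the samples biological replicates, and the cells were given 400 mJ/cm2 of ultraviolet light at 254 nm. The inputs enter only as the denominator of the authors' values, so a log2 fold is the eCLIP level of an interval over its input level. The series has a single cell line in a single state, marked WT (wild type) in the names of the deposited lists, and no sample lacking LARP4 was analysed here.

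Complex III sits in the inner mitochondrial membrane, takes electrons from ubiquinol and hands them to cytochrome c while protons are moved across the membrane. Cytochrome b is made inside mitochondria, and all other subunits are translated from nuclear mRNAs and imported. CYC1 carries the heme of cytochrome c1, UQCRC1 is a large core subunit on the matrix side, and UQCRH, the hinge protein, helps cytochrome c1 meet cytochrome c. UQCRQ, UQCR10 and UQCR11 are small accessory subunits of the membrane part. LARP4 is a La-related RNA-binding protein that binds poly(A) and the poly(A)-binding protein and is known for protecting mRNA from decay. The question of the series is which mRNAs of nuclear-encoded mitochondrial proteins LARP4 binds.

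LARP4 eCLIP signal over input was high across these genes in both replicates. A cluster was called enriched with a log2 fold of at least 3 (8-fold) and an authors' −log10 p of at least 3. By that rule 41 of 56 clusters (73.2%) were enriched in replicate 1 and 43 of 60 (71.7%) in replicate 2. Over the whole lists the rule called 5.01% of clusters in replicate 1 and 5.50% in replicate 2. The 6 genes were chosen with earlier results of these data known, so the contrast describes them and not the complex. In 4 other subunits, 7 of 35 and 3 of 36 clusters were enriched. The median log2 fold of the 6 genes' clusters was 3.64 and 3.99, against 1.28 and 1.30 for all clusters. With the threshold raised to a log2 fold of 4, 18 and 30 clusters passed, against 1.46% and 1.63% of all clusters. The authors' upper limit of −log10 p, 400, was reached by 6 clusters in each replicate, and by 0.293% and 0.274% of all clusters. No cluster of the 6 genes lay below input, while 88.4% and 88.8% of all clusters were at or above it. Their lowest log2 folds were 1.64 and 2.18, and every one had a −log10 p of at least 3. The share of all clusters that passed this p limit alone was not counted. Touching clusters are counted separately in the lists. They were also merged into longer intervals, each counted as enriched if any of its clusters was. The counts were then 21 of 32 (65.6%) and 19 of 34 (55.9%), against 3.94% and 4.28% of all merged intervals. With 2 eCLIP replicates a sign-flip test over samples cannot give a p below 0.5, so no test was made over samples, and the spread between replicates is given as an SD.

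**Figure D1:**
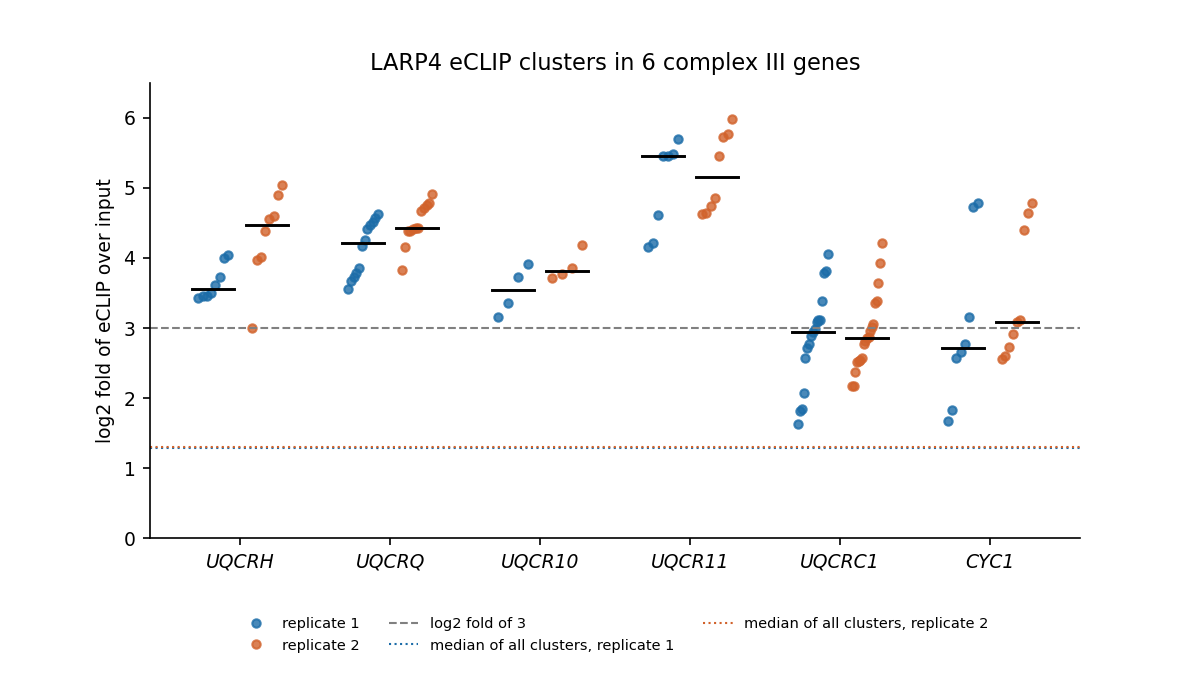
Log2 fold of eCLIP over input (y axis) for every cluster of each gene (x axis), with replicate 1 in blue and replicate 2 in orange. Black bars are medians, the dashed line is a log2 fold of 3 and dotted lines are the medians of all clusters of each list (1.28 and 1.30). All clusters of UQCRQ, UQCR10 and UQCR11 lie above the dashed line, while those of UQCRC1 and CYC1 lie on both sides of it.

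At the limit of a log2 fold of 3 the genes fell into 2 patterns. In UQCRH, UQCRQ, UQCR10 and UQCR11, which encode small subunits, 31 of 31 clusters were enriched in replicate 1 and 31 of 32 in replicate 2. In UQCRC1 and CYC1 the counts were 10 of 25 and 12 of 28. At a log2 fold of 4 this split did not hold. All UQCR11 clusters passed there, and UQCRQ had 7 and 11 of 12 in replicates 1 and 2. UQCRH had 1 and 6 of 8, and UQCR10 0 and 1 of 4. CYC1 had 2 of 8 and 3 of 9, and UQCRC1 1 of 17 and 1 of 19. Over the whole lists 1.46% and 1.63% of clusters passed. UQCRB, another small subunit, had no enriched cluster in either replicate. Loci were used to read the counts at the limit of 3 against the whole lists. Neighbouring clusters on a strand were joined into a locus where no gap exceeded 5 kb, and loci with at least 3 clusters in each replicate were counted. Every cluster of both replicates was enriched in 70 of 13842 such loci (0.506%). The loci of UQCRQ and UQCR10 were among the 70, as were the 3′ locus of UQCR11 and both the middle and the 3′ locus of UQCRH, whose gaps between clusters exceed 5 kb. With gaps of up to 10 kb allowed, 43 of 12072 loci (0.356%) were enriched throughout. UQCR10 alone of the 6 genes lay in such a locus. This is a description, since a locus can join neighbouring genes or split a gene.

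UQCR11 had the highest folds of the 6 genes. Its clusters formed 3 blocks, a block being clusters at most 50 bases apart, over 7325 bases of chromosome 19 on the minus strand. From 5′ to 3′ the blocks lay at chr19:1605359-1605445, chr19:1599411-1599559 and chr19:1598121-1598215. Weighted by cluster width, the log2 fold of the first block was 4.22 in replicate 1 and 4.85 in replicate 2. The middle block had 5.34 and 5.42, and the last block 5.69 and 5.97. The replicate values of the first block did not overlap with those of the other blocks, and both replicates gave the same order.

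The strongest UQCR11 region, chr19:1598128-1598211, had log2 folds of 5.69 and 5.98 in the replicates (mean 5.84 ± 0.20, SD, n = 2), or 51.8-fold over input in the lower replicate. It held place 35 of 7153 when series-wide regions are ordered by the lower replicate. The 3 touching bases next to it, chr19:1598212-1598214, had 5.46 and 5.72. In the middle block, chr19:1599462-1599541 had 5.48 and 5.46 (5.47 ± 0.01) and chr19:1599411-1599440 had 5.45 and 5.77 (5.61 ± 0.23). These 4 regions were the only ones of the 41 with an authors' log2 fold of at least 5, a level reached by 5.97% of the series-wide list. Of the 8 UQCR11 regions, 5 had a −log10 p at the upper limit of 400, as 5.58% of all regions did.

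UQCRQ was enriched along all of its clusters, with similar averages in its blocks. Its 12 clusters in each replicate ranged from 3.56 to 4.63 in replicate 1 and from 3.83 to 4.91 in replicate 2. They made 3 blocks over 1013 bases on the plus strand, at chr5:132202343-132202379, chr5:132202561-132202727 and chr5:132203180-132203355. The block log2 folds were 4.26, 4.36 and 4.10 in replicate 1 and 4.43, 4.52 and 4.55 in replicate 2. The order of the blocks differed between replicates, so no block stood above the others beyond the spread. Inside the last block the level was uneven in both replicates. There chr5:132203233-132203261 had 3.56 and 3.83, and the next region, chr5:132203264-132203344, had 4.51 and 4.91.

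The UQCRQ region with the highest lower replicate was the 3′-most one, chr5:132203264-132203344, with log2 folds of 4.51 and 4.91 (4.71 ± 0.28, SD, n = 2) and a −log10 p of 400 in both lists. Next came chr5:132202561-132202562, only 2 bases wide, with 4.42 and 4.75. The touching regions chr5:132202589-132202617 (4.57 and 4.42) and chr5:132202563-132202588 (4.47 and 4.38) were slightly higher in replicate 1. All 12 regions of the gene were enriched in both replicates, and 9 were higher in replicate 2. The share of all series-wide regions enriched in both replicates was not counted, so the first count has no background.

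UQCRH showed the largest gap between replicates. Its 8 clusters had a median log2 fold of 3.56 in replicate 1, with a range of 3.43 to 4.04. In replicate 2 the median was 4.47, with a range of 2.99 to 5.04. The blocks lay at chr1:46769373-46769450, chr1:46775873-46775988 and chr1:46782224-46782417 on the plus strand, with stretches of several kb free of clusters between them. The first block had 3.61 in replicate 1 and 2.99 in replicate 2, just under the limit, the middle block 3.55 and 4.36, and the last block 3.71 and 4.55. The first block was thus higher in replicate 1 and the other blocks higher in replicate 2.

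Among the UQCRH regions, chr1:46782224-46782265 had the highest lower replicate, with 4.04 and 4.56 (4.30 ± 0.37, SD, n = 2). The neighbouring chr1:46782266-46782307 had a mean of 3.99 ± 0.01, the closest match between replicates among the UQCRH regions. The regions chr1:46775934-46775951 and chr1:46775952-46775988 shared a replicate 1 cluster with a log2 fold of 3.72 and had 5.04 and 4.59 in replicate 2. RefSeq lists 4 pseudogenes named after UQCRH and the retrocopy UQCRHL, whose reads could be shared with the parent gene. In the UQCRHL window the log2 folds were 2.28 to 2.43 in 2 clusters of replicate 1 and 2.01 to 2.82 in 3 clusters of replicate 2, none enriched. The sources used here do not say how reads matching several copies were assigned, so the UQCRH values are uncertain in this respect.

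UQCR10 had 4 clusters in each replicate, all enriched, in blocks at chr22:30163405-30163537 and chr22:30165668-30165891 on the plus strand. The first block had log2 folds of 3.49 and 3.86 and the second 3.91 and 3.995. The regions were chr22:30163405-30163461 with 3.16 and 3.86 (3.51 ± 0.49, SD, n = 2), chr22:30163462-30163537 with 3.73 and 3.86 (3.79 ± 0.09) and chr22:30165706-30165822 with 3.92 and 4.19 (4.05 ± 0.19). All 3 were higher in replicate 2. The first pair share a replicate 2 cluster, and their replicate values overlapped. RefSeq lists 1 pseudogene named after UQCR10.

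**Figure D2:**
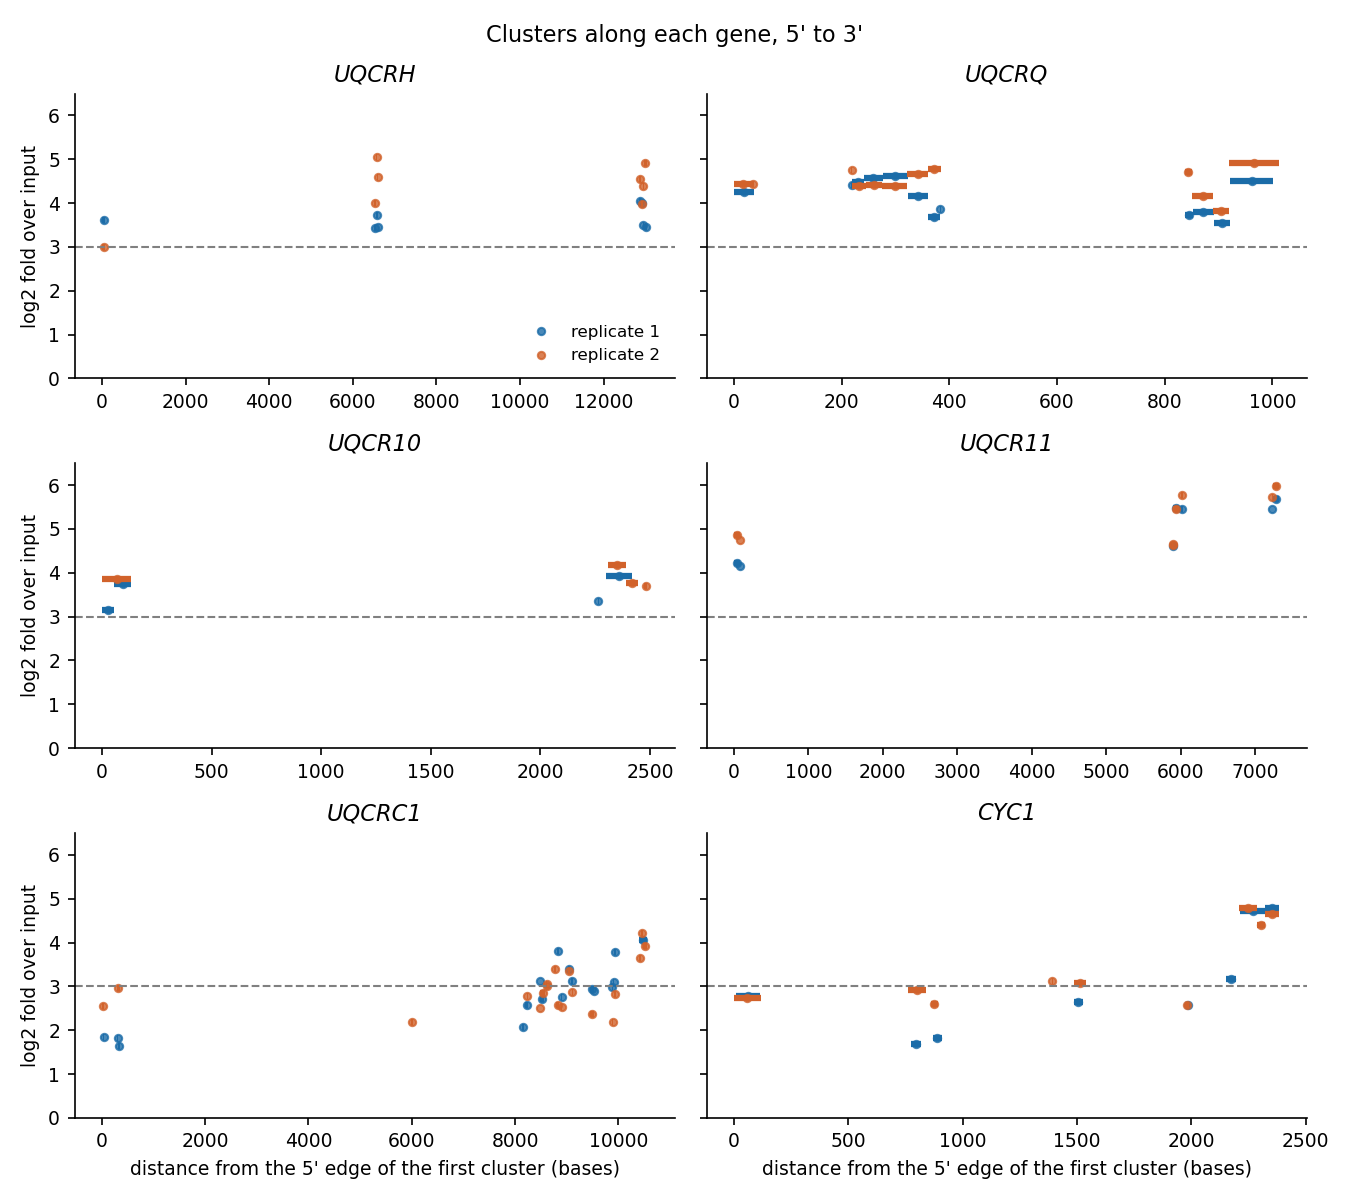
Log2 fold over input (y axis) of each cluster against its distance in bases from the 5′ edge of the gene's first cluster (x axis, scale differs by gene), in blue for replicate 1 and orange for replicate 2. Horizontal bars span the cluster's width and the dashed line is at 3. UQCRQ has similar block averages but an uneven last block. UQCR11 steps up to 5.69 and 5.97 in its last block, and in UQCRC1 and CYC1 the values above 3 gather towards the 3′ end. UQCRC1 also has values below 3 in that part.

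UQCRC1 was enriched mainly at its 3′ end. Of its clusters, 7 of 17 in replicate 1 and 7 of 19 in replicate 2 were enriched, and the highest log2 folds were 4.06 and 4.22. The first block at the 5′ end, chr3:48646985-48647027 on the minus strand, had 1.85 and 2.55. The last block, chr3:48636468-48636625, had 4.06 and 3.92 (3.99 ± 0.10, SD, n = 2). On a scale from 0 at the 5′ edge of the clusters to 1 at the 3′ edge, enriched clusters had a mean position of 0.89 and 0.90, and the other clusters 0.60 and 0.69. Most UQCRC1 clusters, enriched or not, lay towards the 3′ edge, and a few further 5′ lowered the mean of the others. In that 3′ part the block chr3:48637496-48637584 had 2.94 and 2.37, with no enriched cluster.

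The 7 UQCRC1 regions lay in the 3′ part of that span. The highest was chr3:48636556-48636588 with 4.06 and 4.22 (4.14 ± 0.11), followed by chr3:48636468-48636555 with 4.06 and 3.92 and chr3:48636589-48636625 with 4.06 and 3.64. These 3 regions overlap a single replicate 1 cluster, so their replicate 1 value is 1 measurement. The fourth by the lower replicate, chr3:48637955-48638000, had 3.39 and 3.36. Of the 7 regions, 4 had an enriched cluster in both replicates by the longest overlap, again without a share of all regions beside it. The regions at chr3:48638178-48638212 (3.81 and 2.57), chr3:48637068-48637101 (3.79 and 2.82) and chr3:48637915-48637934 (3.11 and 2.87) were under the limit in replicate 2, and are named for that after their values were seen.

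CYC1 carried its enrichment in the last block. The 5′ block, chr8:145150001-145150118 on the plus strand, had log2 folds of 2.78 and 2.73. The last block, chr8:145152151-145152385, had 4.42 and 4.66, and both replicates placed it above every other block of the gene. Replicate 1 had 3 enriched clusters of 8, all in the last block. Replicate 2 had 5 of 9, with 2 further upstream at 3.11 and 3.09. The mean position of enriched clusters was 0.95 and 0.82, against 0.44 and 0.39 for the others.

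The CYC1 regions were chr8:145152211-145152288 with 4.73 and 4.79 (4.76 ± 0.04, SD, n = 2), chr8:145152289-145152324 with 4.73 and 4.40 (4.56 ± 0.23) and chr8:145152325-145152384 with 4.78 and 4.64 (4.71 ± 0.10). The first pair share a replicate 1 cluster. The highest was 27.1-fold over input at the mean, and all 3 regions were at least 21.1-fold over input in the lower replicate.

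Averaged over each gene's series-wide regions, the order was UQCR11, CYC1, UQCRQ, UQCRH, UQCR10 and UQCRC1. UQCR11 had a mean log2 fold of 5.09 ± 0.19 (SD, n = 2), or 34.1-fold. CYC1 had 4.68 ± 0.09, UQCRQ 4.33 ± 0.27, UQCRH 3.997 ± 0.44, UQCR10 3.78 ± 0.26 and UQCRC1 3.55 ± 0.29. The replicate values of UQCR11 and CYC1 did not overlap, at 4.96 and 5.23 against 4.74 and 4.61. Those of CYC1 and UQCRQ did not overlap either, but in replicate 2 they differed by only 0.09. UQCRQ and UQCRH, UQCRH and UQCR10, and UQCR10 and UQCRC1 each overlapped. UQCR10 was below UQCRC1 in replicate 1 (3.60 against 3.75) and above it in replicate 2 (3.97 against 3.34), so that step has no settled direction. The means cover only intervals that the authors' list kept, with authors' log2 folds of 3.08 or more in these genes. Regions count equally whatever their width, and a cluster shared by several regions enters the mean once for each. Every gene had such a cluster, such as that at 4.06 in UQCRC1 and that at 4.73 in CYC1 (replicate 1). In UQCR10 it was the replicate 2 cluster at 3.86. The 3 CYC1 regions all lie in its last block, and over all its clusters CYC1 was not second. Weighted by width over all clusters, CYC1 had 3.34 and 3.49 in the replicates, below UQCR11 (5.11 and 5.43), UQCRQ (4.23 and 4.52), UQCR10 (3.69 and 3.93) and UQCRH (3.64 and 4.18) in both. UQCRC1 was lowest in both, with 3.11 and 2.99.

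The 3′ block of a gene was higher than its 5′ block in both replicates in 5 of the 6 genes. The 3′ minus 5′ difference in log2 fold was 1.79 ± 0.59 (SD, n = 2) for UQCRC1, 1.78 ± 0.20 for CYC1 and 1.29 ± 0.25 for UQCR11. It was 0.83 ± 1.03 for UQCRH and 0.28 ± 0.20 for UQCR10. In UQCRQ the difference was −0.16 in replicate 1 and 0.12 in replicate 2. The UQCRH difference was 0.10 in replicate 1 and 1.56 in replicate 2, so its mean was smaller than the spread. Over 3029 loci of the whole lists with at least 2 blocks and both replicates in the first and the last, the last block was higher in both replicates in 48.0%. These loci are not annotated genes and were split at gaps over 5 kb, while the 6 genes were read across their whole windows. UQCR11, UQCRC1 and UQCRH have gaps of 5799, 5651 and 6422 bases, so their first and last blocks lie in different loci. For these genes the share of loci is not the same measure, and the comparison was not tested.

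**Figure D3:**
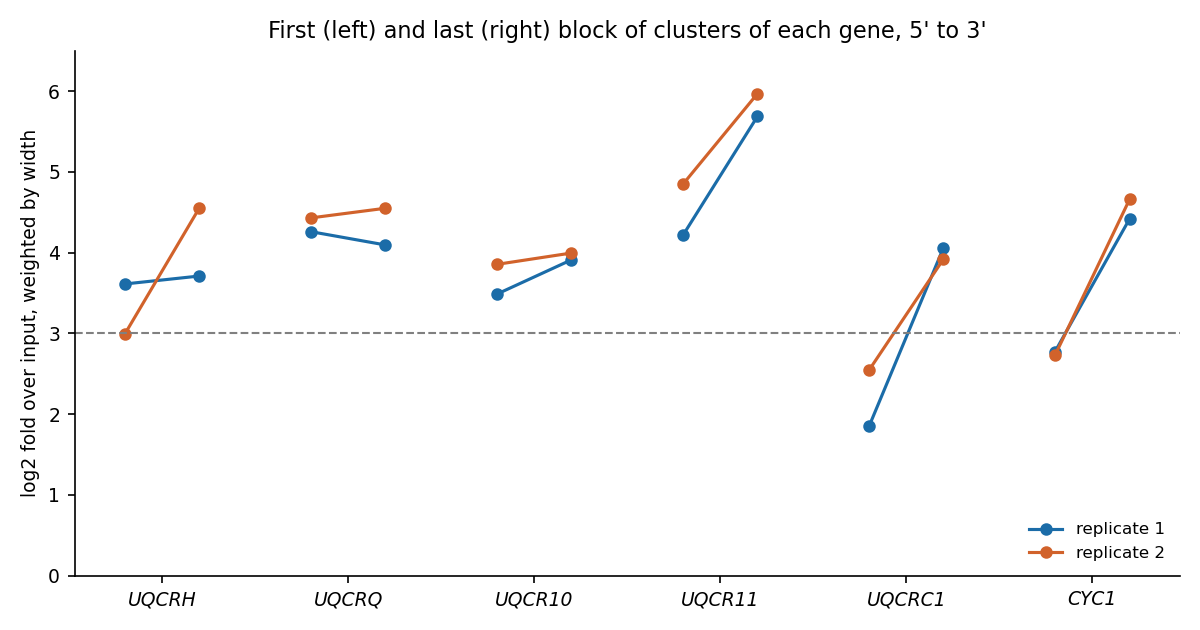
Width-weighted log2 fold over input (y axis) of the first, 5′ block (left point) and the last, 3′ block (right point) of each gene (x axis), joined by a line per replicate, blue for replicate 1 and orange for replicate 2. The lines rise steeply in UQCR11, UQCRC1 and CYC1, and in UQCRH they rise by 0.10 in replicate 1 and 1.56 in replicate 2.

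From the first to the last cluster edge, the clusters spanned most of the length of each gene except UQCRQ. RefSeq gene lengths in GRCh38 were used for this as lengths alone, since hg19 coordinates were not converted. The clusters of UQCRH spanned 13045 bases of a gene of 13079, those of UQCRC1 10560 of 10645 and those of CYC1 2385 of 2450. UQCR11 clusters spanned 88.3% and UQCR10 clusters 81.7% of the gene length. UQCRQ clusters spanned 1013 of 2206 bases, or 45.9%. These spans include gaps and are not coverage. In replicates 1 and 2 the clusters covered 387 and 385 bases in UQCRH, 294 and 310 in UQCR11 and 369 and 380 in UQCRQ. They covered 252 and 280 in UQCR10, 463 and 480 in CYC1 and 667 and 738 in UQCRC1. UQCRQ thus had a short span but about as many covered bases as the far longer UQCRH. Which exons or introns the blocks fall in was not analysed here.

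Enrichment in these genes repeated between the replicates. Of 53 replicate 1 clusters that overlapped a replicate 2 cluster, 33 (62.3%) were enriched in both. A further 6 passed only in replicate 1, 1 passed only in replicate 2 and 13 passed in neither. Over the whole lists 6.51% of overlapping clusters were enriched in both. At the 41 regions, replicate 2 was higher in 27, with a median difference of 0.26 on the log2 scale. Over all regions it was higher in 59.5%, with a median difference of 0.17. The replicates were within 1 log2 unit of each other at 37 of the 41 regions, and at 75.8% of all regions. The exceptions were UQCRH regions (2), a UQCRQ region and a UQCRC1 region. The authors' log2 fold had a median of 4.29 over the 41 regions and 3.65 over the whole list.

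**Figure D4:**
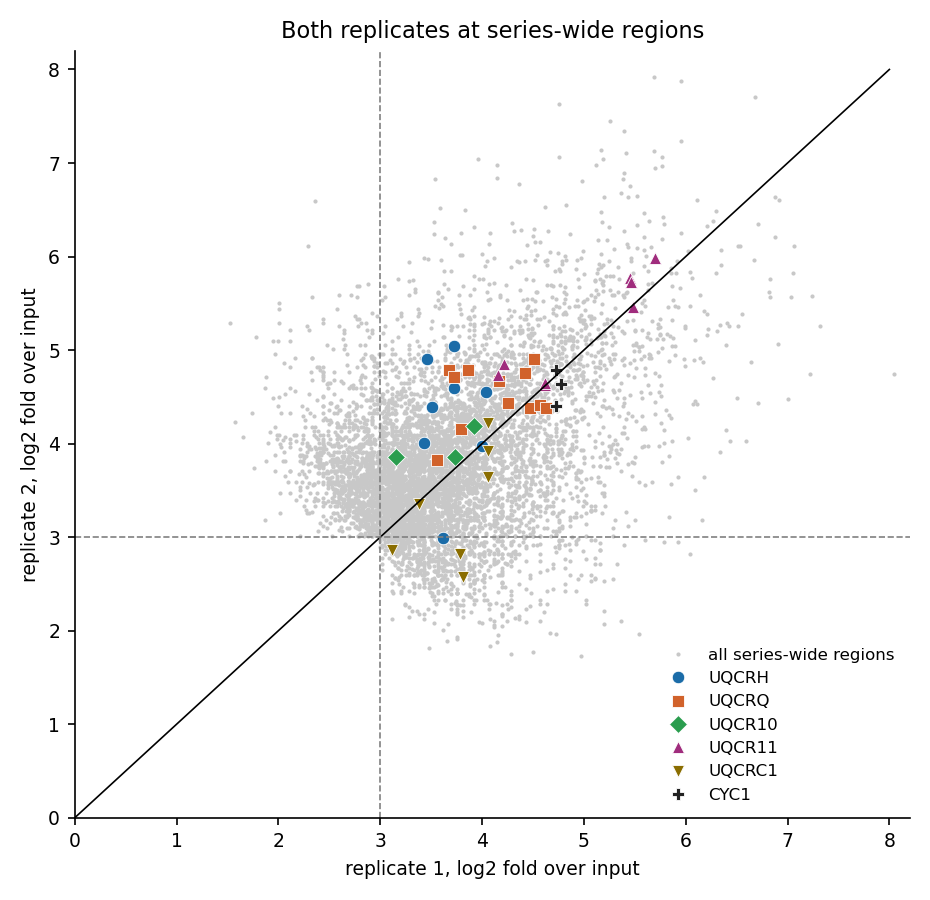
Log2 fold over input in replicate 1 (x axis) and replicate 2 (y axis) of the cluster with the longest overlap at each series-wide region. Grey points are all 7153 regions, coloured symbols the 41 regions of the 6 genes, the solid line marks equal values and dashed lines mark 3. UQCR11 holds the 4 points near 5.5 on both axes. In replicate 2, 3 UQCRC1 points fall below 3, as does a UQCRH point at 2.99.

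Other genes linked to the complex varied widely, from UQCRFS1, whose clusters were mostly enriched, to MT-CYB, near input. A list of 11 further genes held 4 subunits, the retrocopy UQCRHL, cytochrome c itself (CYCS) and 5 assembly factors. Their windows were set from general knowledge of hg19 gene positions. A series-wide region was present in 4 of the 11 genes, with 9 regions in all. In replicate 1, 12 of 82 clusters were enriched, and in replicate 2, 8 of 94, beside the 5.01% and 5.50% of the whole lists.

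Among the other subunits, UQCRFS1, the Rieske iron-sulfur protein, was the only one with regions. Its 4 regions had a mean log2 fold of 4.36 in replicate 1 and 3.15 in replicate 2 (3.75 ± 0.85, SD, n = 2), and 4 of 5 and 3 of 4 of its clusters were enriched. UQCRC2, the core partner of UQCRC1, had 3 of 16 enriched clusters in replicate 1 and 0 of 18 in replicate 2, with medians of 1.74 and 1.34 and no region. UQCRB, a small subunit that binds ubiquinone, had no enriched cluster in 7 and 6, with medians of 1.92 and 2.04 and highest values of 2.698 and 2.33. All UQCRB clusters thus lay below every cluster of UQCRQ, UQCR10, UQCR11 and UQCRH. MT-CYB, the mitochondrial cytochrome b, had medians of 0.25 and 0.47 in 7 and 8 clusters, and its highest value was 0.92. CYCS, the small carrier that takes electrons from the complex, had medians of 1.78 and 1.68 with 1 of 7 and 0 of 4 clusters enriched. RefSeq lists 45 pseudogenes named after CYCS, with the same uncertainty as for UQCRH.

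Among the assembly factors, UQCC2 had 3 regions, and BCS1L and UQCC1 had 1 each. UQCC2, which acts early with cytochrome b, had 2 of 3 and 3 of 5 enriched clusters and a mean log2 fold over its regions of 3.70 ± 0.11 (SD, n = 2). Its window also held 3 and 5 clusters on the opposite strand. BCS1L, the ATPase that inserts the Rieske protein, had a region at 4.32 and 4.87 in its 3′-most cluster, with medians over all its clusters of 2.06 and 0.88. UQCC1 had a region at 3.92 and 3.26. LYRM7 and TTC19, which act with the Rieske protein, had no enriched cluster in 8 and 9 and in 16 and 20, with medians of −0.09 and −0.48 and of 0.17 and 0.71.

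**Figure D5:**
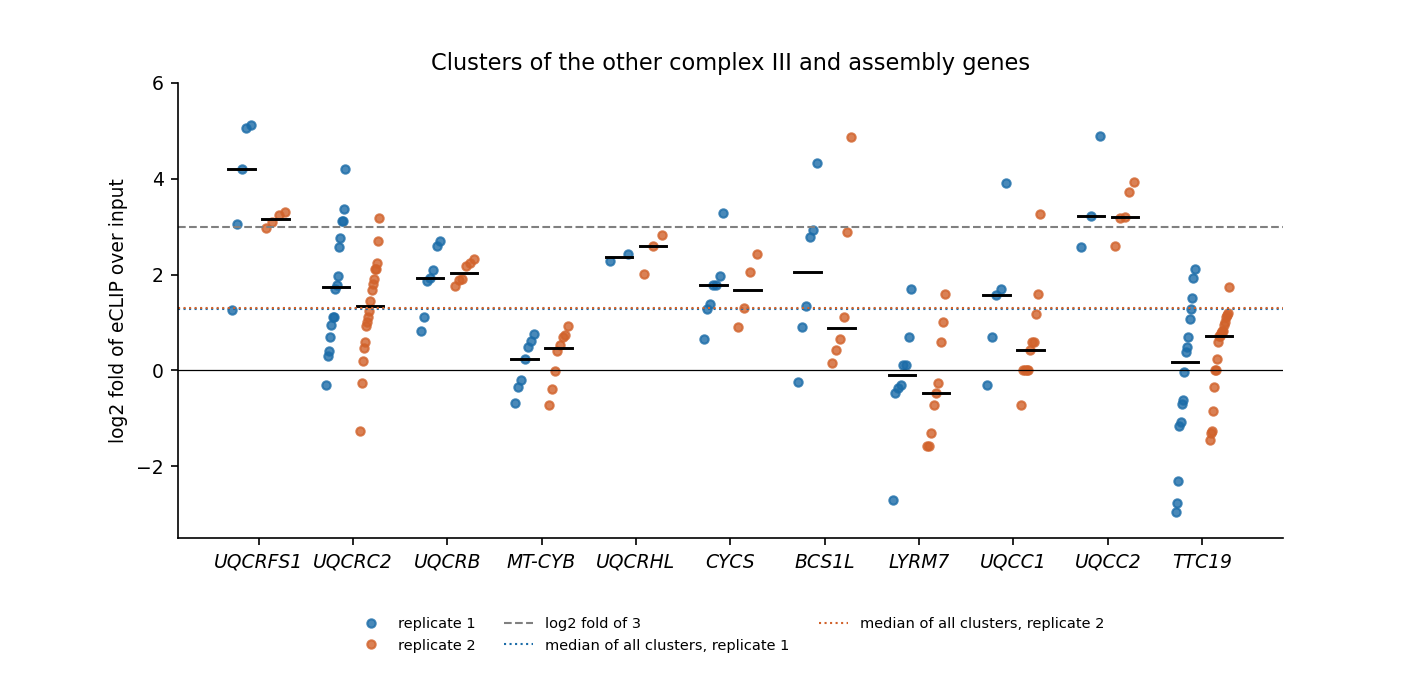
Log2 fold over input (y axis) of every cluster of the 11 further genes (x axis), replicate 1 in blue and replicate 2 in orange, with medians as black bars, a dashed line at 3 and dotted lines at the medians of all clusters. Only UQCRFS1 and UQCC2 have most of their clusters above 3 in both replicates, and the highest MT-CYB value is 0.92.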

How the data were processed

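The authors deposited, for each eCLIP replicate and for the whole series, a list of stranded intervals with a −log10 p and a log2 fold over size-matched input. The lists have no header, so what these columns hold was itself read from the values, as was the upper limit of 400 of the −log10 p. Per the submitters' processing notes, UMI-tools 1.0.0, cutadapt 1.14, STAR 2.7.6a, SAMtools 1.6 and hg19 were used. The sources used here do not give the peak caller, depth scaling or how replicates were combined.

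Enriched means a log2 fold and a −log10 p both of 3 or more. The authors' p-values set 1 library against 1 input per cluster and served only as a filter. Read depth is unknown, so a single fold has no interval. Each region took its value in a replicate from the longest-overlapping cluster (at least 1 base). Regions named are all of a gene's regions up to 6, otherwise the 4 with the highest lower replicate. All members, lists and rules were chosen with earlier results of these data known. Blocks and loci were defined after seeing the data. Window chromosomes matched RefSeq (GRCh38.p14) for all 6 genes and strands for the 5 with a strand there. Of the 11 further genes 10 matched by symbol, and the windows of UQCRFS1, UQCRB and TTC19 were shorter than the RefSeq gene. Positions are hg19, counted from 1. Overlap code was tested on simulated data. Alternatives changed thresholds, windows, merging, weighting and the replicate used. Software was Python 3.11.15 with pandas 2.3.3, numpy 2.4.6 and matplotlib 3.10.9.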

Additional observations from a re-analysis of the deposited data

How the results depend on the processing

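Of 40 alternatives run on the 6 genes without leaving out a replicate, 10 moved the value. The other 30 kept it within the replicate SD, or a count within 1.5 times. These 30 do not measure stability, since some could not move. Every cluster of the genes had a −log10 p of at least 3, so dropping that limit changed nothing. Widening the windows by 1 kb added no cluster. With the log2 fold limit lowered to 1, every cluster counted as enriched, against 41 of 56 and 43 of 60. That stayed within 1.5 times, so no lower limit could have moved these counts. Over the whole lists the lowered limit called 24037 of 171755 clusters in replicate 1 and 26225 of 191899 in replicate 2. With the threshold raised to a log2 fold of 4, enriched clusters fell to 18 in replicate 1 (1.46% of all clusters passed), regions to 27 (30.5% of all regions passed) and overlapping clusters enriched in both replicates to 17 of 53 (1.58% of all). In replicate 2 the count at that threshold was 30 (1.63%). Merging touching intervals gave 21 of 32 and 19 of 34 enriched clusters (3.94% and 4.28% of all merged clusters) and 19 of 5023 merged regions. The CYC1 difference in mean position between enriched and other clusters, 0.51 and 0.43, was 0.65 and 0.65 weighted by width and 0.45 and 0.50 with the threshold at 4. Leaving out a replicate gave means from 4.96 to 5.23 for UQCR11, 4.61 to 4.74 for CYC1, 4.14 to 4.52 for UQCRQ, 3.69 to 4.31 for UQCRH, 3.60 to 3.97 for UQCR10 and 3.34 to 3.75 for UQCRC1. With 2 replicates such a mean is always within 1 SD, so these say nothing on stability. The order of UQCR10 and UQCRC1 reversed without replicate 2 (3.60 and 3.75). No paired analysis was possible because the inputs enter only within the authors' ratios. With blocks of clusters up to 200 bases apart, chosen after seeing the data, 5 genes again had the higher 3′ block in both replicates. Among loci, again split at gaps over 5 kb, the share was 45.5%. The cause of these shifts was not tested. A stricter threshold or merging by itself leaves fewer intervals to count. Read depth is unknown, and 2 replicates limit every SD.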
